A study of Mus musculus with 116 samples.

Results

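The 9 genes Ccn1, Ccn2, Thbs1, Ankrd1, Tgfb1, Tgfbr1, Tgfbr2, Smad7 and Tgfbi were taken by symbol from the count files, which list 40202 gene symbols for each library. All of them are genes that answer to the coactivator YAP or to transforming growth factor beta (TGF-beta), or that carry the TGF-beta signal. The study measured RNA in mouse cell lines processed with nanoSPLITS, a method that splits a nanodroplet of cell lysate so that RNA and protein can be measured from the same cells. C10 is labelled as an alveolar type II epithelial line of the lung and SVEC as an endothelial line. In an input series of C10, 8 libraries came from 1 cell each, 6 from 3 pooled cells and 6 from 10 pooled cells, and a separate set held 48 C10 and 48 SVEC single cells. All groups were untreated cells in standard culture, with no change of genotype named in the labels, so the values describe resting culture and not a response to YAP activation or to added TGF-beta.

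YAP and its relative TAZ are held in the cytoplasm by the kinases of the Hippo pathway. When cells spread on a stiff surface, YAP and TAZ enter the nucleus and bind TEAD proteins, which recognise a short DNA motif at genes such as Ccn1, Ccn2 and Ankrd1. TGF-beta binds the type II receptor Tgfbr2, which activates the type I receptor Tgfbr1, and the signal is passed on by SMAD proteins until inhibitors such as Smad7 block it. The pathways share several target genes, and in lung and vessel walls both are known for their part in matrix production, wound repair and fibrosis.

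Promoters were examined for the TEAD motif because the YAP targets had the highest levels of the 9 genes. RefSeq promoter sequences of assembly GRCm38.p6 matched 6 of the 9 genes (Ankrd1, Ccn1, Tgfb1, Tgfbi, Tgfbr1 with 2 starts, and Tgfbr2), and the 250 bases before each start were searched on both strands. The letters GGAATG, or CATTCC when read on the other strand, occurred in the promoters of Ankrd1 and Ccn1 and in neither Tgfb1, Tgfbi, Tgfbr1 nor Tgfbr2. In all, 12.6% of 32851 promoters of that length held these letters. The sequences of both genes are printed 5′ to 3′ on the gene's own strand, with the match in capitals. Both genes lie on the minus strand, and the windows are chr19:36119845-36120094 for Ankrd1 and chr3:145649986-145650235 for Ccn1.
Ankrd1: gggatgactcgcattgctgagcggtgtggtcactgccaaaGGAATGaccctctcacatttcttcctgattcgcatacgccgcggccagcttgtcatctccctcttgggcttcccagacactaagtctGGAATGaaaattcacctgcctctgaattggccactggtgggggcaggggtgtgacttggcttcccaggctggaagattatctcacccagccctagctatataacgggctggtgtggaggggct
Ccn1: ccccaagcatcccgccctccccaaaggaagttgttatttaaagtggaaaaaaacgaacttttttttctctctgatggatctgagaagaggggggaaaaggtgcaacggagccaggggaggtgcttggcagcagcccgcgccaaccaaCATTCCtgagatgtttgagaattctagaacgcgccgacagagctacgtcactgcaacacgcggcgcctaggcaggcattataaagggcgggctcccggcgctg
Ankrd1 held 2 matches, at positions -210 and -123 from its start, and Ccn1 held 1 match on the reverse strand, at position -103. The SMAD letters CAGACA occurred at position -137 of Ankrd1 and at position -203 before the second start of Tgfbr1. They were present in 17.1% of all promoters. The AP-1 letters TGANTCA, where N is any base, were absent from the promoters of the 6 genes and present in 6.75% of all promoters, and the CArG box was absent from the 6 genes and present in 1.47%. These matches describe letters in a window and not occupied sites.

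Depth and identity bear on every level below. Libraries of the input series held 430798 to 15385625 counts, and replicate 1 of the 1-cell group stood apart with the lowest total, 538 genes with a count and 4.07% of its reads assigned to a gene. After 2 C10 single cells under 1000 counts were left out, the 46 C10 single cells held 83188 to 5911755 counts and the 48 SVEC single cells 5122 to 2831907. The label of C10 was met only in part. Sftpa1, Sftpb, Sftpc and Sftpd, the surfactant genes that define alveolar type II cells, were at 0 in the C10 single cells. Nkx2-1 and Slc34a2 were also at 0 there, as were the epithelial markers Krt8, Cldn4 and Cldn7. Only Etv5 of 11 alveolar type II markers and Cdh1 of 8 epithelial markers had a count in 50% or more of these cells. The summed level of the 11 had a median of 1.34 CPM, counts scaled to a library total of 1000000, and a highest value of 172.2. That of the 8 had a median of 0.648 CPM and a highest value of 239.1. The label of SVEC was likewise not borne out by its markers. None of 12 endothelial markers was detected in at least 50% of SVEC cells, and Kdr, Tie1, Emcn, Vwf, Cldn5 and Esam were at 0. The summed level of the 12 had a median of 0 CPM and a highest value of 138.4. The mesenchymal genes Vim, Col1a1, Col3a1 and Dcn were detected in at least 50% of the cells of both lines. The summed level of 9 mesenchymal markers ran from 1710 to 15568 CPM in C10 (median 4623) and from 481.1 to 11815 CPM in SVEC (median 2385).

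Per kilobase of exon, Ccn1 was the highest of the 9 genes in every group, with a mean of 265.7 CPM per kb in C10 single cells and 594.5 in SVEC single cells. Thbs1, Ccn2 and Ankrd1 followed, with means of 66.5, 49.99 and 23.5 CPM per kb in C10 single cells. The SDs of these 3 between cells, 150.8, 63.5 and 41.7, were larger than the gaps between the means, and the order of the means was not tested. The receptor Tgfbr2 stood at 9.71 CPM per kb in C10 single cells, and Tgfbr1, Tgfb1 and Smad7 between 0.438 and 1.55. In these cells the 4 YAP targets were thus measured at means of 23.5 CPM per kb and above, and the ligand, receptors and inhibitor at 9.71 and below. In bulk libraries of 3 and 10 cells, fewer cells with a transcript and less RNA per cell cannot be told apart.

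Ccn1 encodes a secreted matrix protein that binds integrins and is a classical YAP target. It was detected in 45 of 46 C10 cells and 44 of 48 SVEC cells, where detected means at least 1 count. Its level ran from 0 to 2271 CPM in C10 cells with a median of 491.5, and from 0 to 5190 CPM in SVEC cells with a median of 945.4. The ranges overlapped, and the highest values belonged to SVEC. Means were 536.4 ± 404.6 CPM in C10 (SD, n = 46) and 1200 ± 1130 CPM in SVEC (SD, n = 48).

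Ccn2, the close relative of Ccn1 long known as connective tissue growth factor, responds to both YAP and TGF-beta. It was found in 30 of 46 C10 cells and in 13 of 48 SVEC cells. The level in C10 cells ran from 0 to 730.1 CPM with a median of 94.1, and the median in SVEC cells was 0. A single SVEC cell, replicate 4, reached 1483 CPM and held 52.8% of the CPM summed over the line. Without it the SVEC mean was 28.2 ± 63.9 CPM (SD), against 143.0 ± 181.7 CPM in C10 (SD, n = 46). The 16 C10 cells and 35 SVEC cells with no count allowed, at 3 counts, a median level of up to 1.89 and 8.69 CPM respectively. Cells with a count had a median of 203.2 CPM in C10 and 115.3 CPM in SVEC, and in the shallowest SVEC cell the 3-count level was 585.7 CPM, so a zero there is uninformative.

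Thbs1 encodes thrombospondin, a matrix glycoprotein that can release TGF-beta from its latent form. It was detected in 44 of 46 C10 cells and 23 of 48 SVEC cells. Its level in C10 cells ran from 0 to 6130 CPM with a median of 174.2, and in SVEC cells from 0 to 1088 CPM with a median of 0. Among cells with a count, the order was the other way, with a median of 179.0 CPM in C10 and 379.1 CPM in SVEC. The highest C10 value, replicate 24, held 33.0% of the summed CPM of its line, and without it the C10 mean fell from 404.2 ± 916.1 to 276.9 ± 311.0 CPM. The SVEC mean was 219.7 ± 322.2 CPM (SD, n = 48).

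Ankrd1, a nuclear and sarcomeric ankyrin repeat protein that is a widely used reporter of YAP activity, was detected in 20 of 46 C10 cells and 18 of 48 SVEC cells. Levels ran from 0 to 473.5 CPM in C10 and from 0 to 1117 CPM in SVEC, with medians of 0 in both. Among cells with a count, the medians were 106.9 and 198.9 CPM. Means of 67.9 ± 120.4 CPM (SD, n = 46) and 113.4 ± 251.7 CPM (SD, n = 48) differed by less than their SDs.

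Tgfb1, the ligand, was scarce. It had a count in 18 of 46 C10 cells, but only 8 of them had at least 10 counts, and in 7 of 48 SVEC cells, 1 of them with at least 10 counts. Its highest level was 34.3 CPM in C10 and 37.7 CPM in SVEC.

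The receptors differed in how often they were seen. Tgfbr2 was detected in 33 of 46 C10 cells and 14 of 48 SVEC cells, with a range of 0 to 489.9 CPM and a median of 16.5 in C10 and a range of 0 to 321.6 CPM and a median of 0 in SVEC. Tgfbr1 was detected in 7 C10 cells, at 2.80 to 203.3 CPM, and in 5 SVEC cells, at 40.4 to 534.3 CPM. Both receptors had a count in 5 C10 cells and in 2 SVEC cells. The cells without a Tgfbr1 count allowed, at 3 counts, a median level of up to 1.49 CPM in C10 and 7.56 CPM in SVEC.

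Smad7, the inhibitor that TGF-beta itself induces, was detected in 9 of 46 C10 cells, at up to 32.2 CPM, and in 3 of 48 SVEC cells, none with 10 counts or more. Tgfbi, a secreted matrix protein named for its induction by TGF-beta, had no count in any of the 46 C10 single cells, which over their pooled counts allowed at most 0.0302 CPM, nor in any library of the C10 input series. It had 141 counts, or 528.4 CPM, in a single SVEC cell, replicate 14, and none in the other 47. Floors in CPM cover the counting of reads only, because reads were not marked by molecule, and not which cells were drawn. The exact intervals on detection cover the draw of cells. By that interval, no count in 46 C10 cells still allows Tgfbi in up to 7.71% of such cells.

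**Figure D1:**
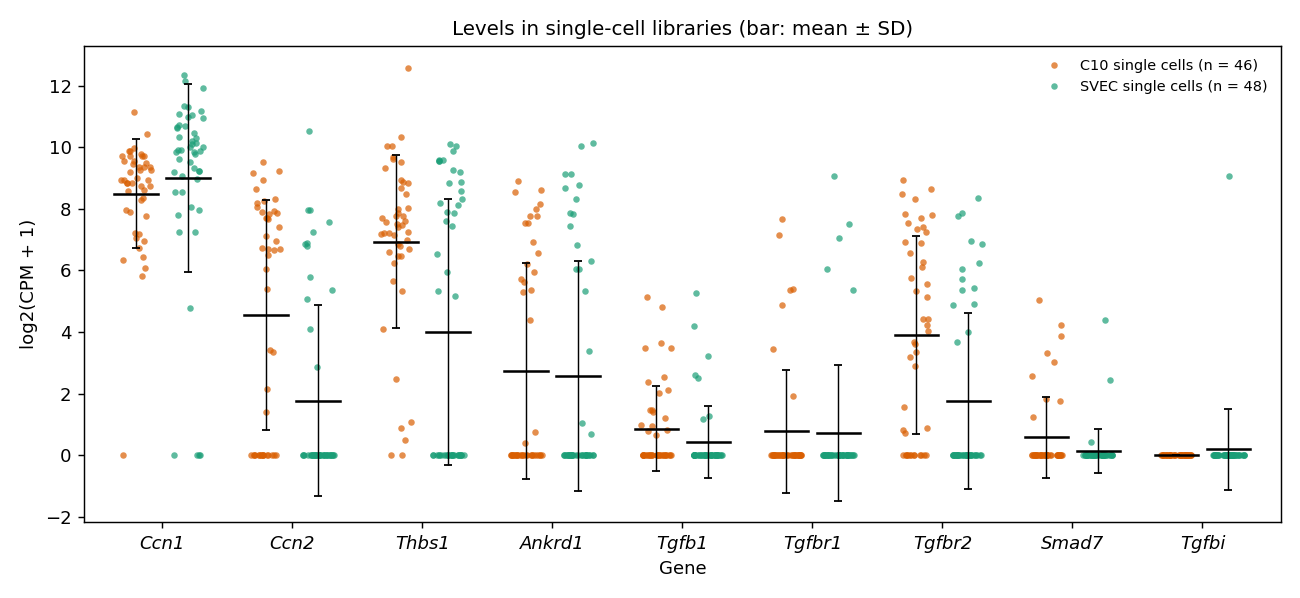
Level of each of the 9 genes in every single-cell library, as log2(CPM + 1) on the vertical axis, with C10 cells (n = 46) in orange and SVEC cells (n = 48) in green; the horizontal bar is the mean and the vertical bar the SD. Ccn1 lies well above 0 in nearly all cells, the other genes split into cells at 0 and cells with a level, and Tgfbi has a count in 1 SVEC cell.

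The first comparison asked which of these genes differ between the lines, in single cells. In C10 the means of Ccn2, Thbs1 and Tgfbr2 were higher, and in SVEC those of Ccn1 and Ankrd1. In edgeR's quasi-likelihood test, none of the 6 genes that were detected often enough to be tested passed an adjusted p of 0.05, while 18.7% of all 9303 genes did (14.2% higher in C10 and 4.49% higher in SVEC). The 6 genes had a median log2 fold change of 1.19, against 0.35 over all genes tested. Tgfbr1, Smad7 and Tgfbi had a count in under 25% of the cells of each line and were not tested.

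Ccn1 had a log2 fold change, C10 minus SVEC, of -0.88 with an SE of 0.34 (edgeR, adjusted p = 0.0545). Scaling by library totals alone gave -1.19 (adjusted p = 0.00471), and thinning every library to 100000 counts gave -1.09 (adjusted p = 0.00892), so that Ccn1 passed the threshold there, when 7.18% and 6.67% of genes passed as higher in SVEC. The limma test on log2(CPM + 1) gave -0.52 (adjusted p = 0.442). Its direction was the same under each of these scalings. The trimmed-mean (TMM) factors used in the first value place the median of all genes at 0.35 and library totals place it at -0.002; the share of calls higher in C10 was 75.9% with the former and 57.7% with the latter.

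Thbs1 had a log2 fold change of 1.56 with an SE of 0.64 (edgeR, adjusted p = 0.0792), Ccn2 of 1.52 with an SE of 0.76 (adjusted p = 0.169), and Tgfbr2 of 1.83 with an SE of 0.75 (adjusted p = 0.0759). On the log2(CPM + 1) scale, where cells at 0 weigh more, limma gave 2.94 for Thbs1 (adjusted p = 0.00103), 2.79 for Ccn2 (adjusted p = 0.00107) and 2.16 for Tgfbr2 (adjusted p = 0.00474). All 3 passed there, when 30.8% of genes passed as higher in C10. edgeR with DESeq2 size factors called the same 3 genes, at 2.05, 2.03 and 2.20 (adjusted p = 0.015, 0.043 and 0.023), when 18.4% of genes passed as higher in C10. DESeq2's own test called Tgfbr2 alone, at 2.20 (adjusted p = 0.0328), when 14.8% of genes passed as higher in C10. The calls on these 3 genes thus change with the test and with the scaling. Ankrd1 had a value of -0.52 with an SE of 0.81 (edgeR, adjusted p = 0.741), which turned to 0.17 in limma (adjusted p = 0.882). Tgfb1 had a value of 0.87 with an SE of 0.64 (edgeR, adjusted p = 0.397) and a 95% interval from -0.39 to 2.12. It entered the test only through C10, since under 25% of SVEC cells had a count.

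Detection was then compared at equal total counts, since C10 libraries were deeper; the number of molecules behind those reads is not known. With each library of at least 100000 counts thinned to that number, Thbs1 was detected in 40 of 45 C10 cells (88.9%) and 19 of 42 SVEC cells (45.2%; Fisher's exact test, two-sided, adjusted p = 0.000515 over 7224 genes). Tgfbr2 was detected in 30 of 45 and 14 of 42 cells (Fisher's exact test, adjusted p = 0.018), and Ccn2 in 26 of 45 and 12 of 42 cells (Fisher's exact test, adjusted p = 0.0459). These 3 of the 5 genes tested passed, all more often detected in C10, when 21.9% of all genes tested passed, 19.2% in that direction and 2.69% in the other. Ankrd1 was detected in 17 of 45 C10 cells and 14 of 42 SVEC cells (Fisher's exact test, adjusted p = 0.920), and Ccn1 in 44 of 45 and 39 of 42 (Fisher's exact test, adjusted p = 0.540). Many genes were detected more often in C10 at equal total counts, and the part of this general difference in the result for Thbs1, Tgfbr2 and Ccn2 was not tested.

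**Figure D2:**
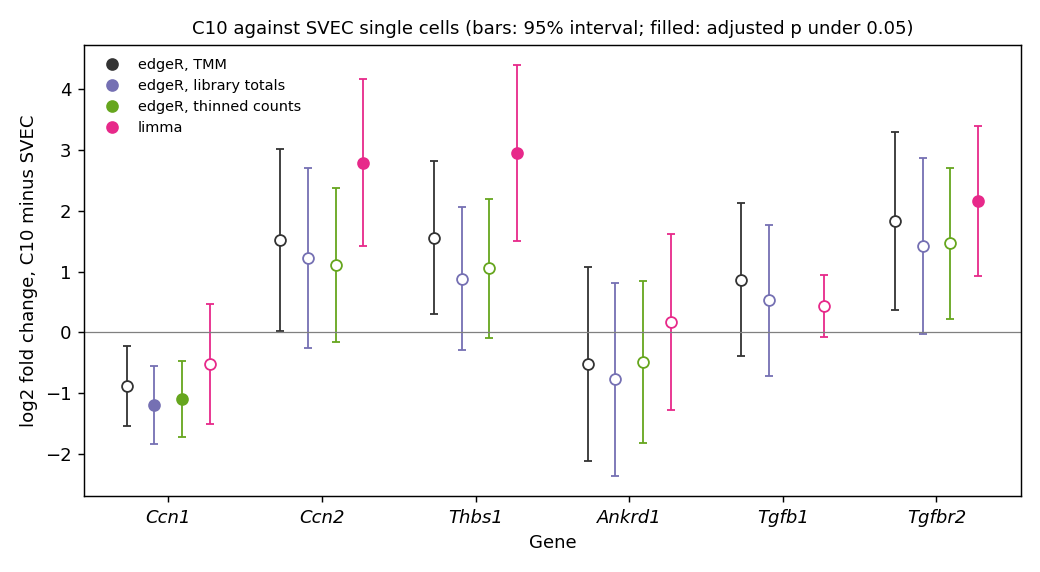
log2 fold change of the 6 tested genes, C10 minus SVEC single cells, under edgeR with TMM factors, edgeR with library totals, edgeR on thinned counts and limma on log2(CPM + 1); bars are 95% intervals and filled circles have an adjusted p under 0.05. Ccn1 lies below 0 in all 4 fits, Ccn2, Thbs1 and Tgfbr2 lie above 0, and which circles are filled changes with the fit; Tgfb1 did not pass the filter on the thinned counts.

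**Figure D3:**
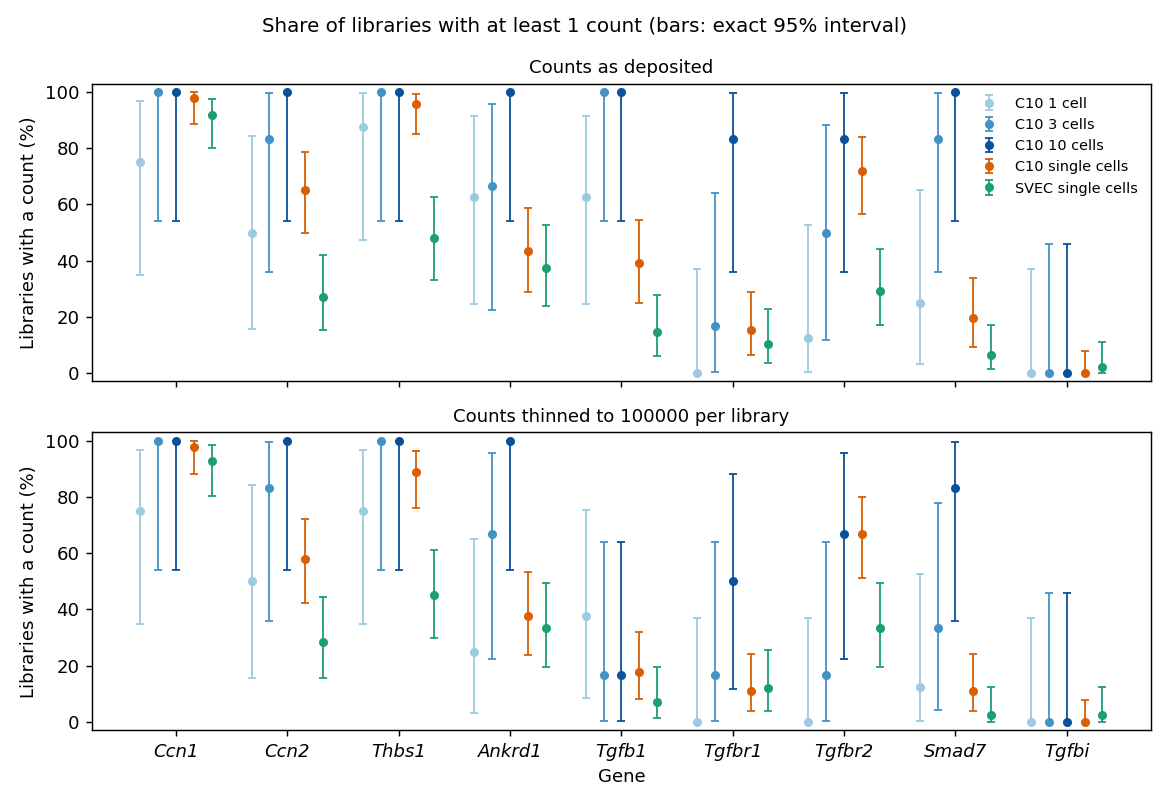
Share of libraries with at least 1 count of each gene (vertical axis, percent) in the 5 groups, from the counts as deposited (upper panel) and thinned to 100000 counts per library (lower panel); bars are exact Clopper-Pearson 95% intervals. Thbs1, Ccn2 and Tgfbr2 are detected in more C10 than SVEC single cells in both panels, and the shares for Tgfb1 in the 3-cell and 10-cell libraries drop from 100% to 16.7% when thinned.

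Further genes of both pathways were read from 4 lists with the 9 genes left out, 84 genes in all, of which 65 were tested between the lines. Of these 65, 12 were higher in C10 and 3 were higher in SVEC, beside 14.2% and 4.49% of all genes. Igfbp3, Axl, Myof, Tead3, Tead4, Yap1, Wwtr1, Furin and Col1a1 fall outside the rule for naming genes and were picked after their values were seen. Among 19 other YAP and TAZ targets, 14 were tested, 2 were higher in C10 and none was higher in SVEC, and the list's median log2 fold change of 0.34 was close to the 0.35 of all genes. Those 2 were Gadd45a, a stress-induced regulator of growth arrest, with means of 63.7 ± 67.2 CPM for C10 cells and 14.9 ± 51.4 CPM for SVEC cells (log2 fold change 2.84, edgeR, adjusted p = 0.00273), and Ccdc80, a secreted matrix protein, at 253.0 ± 263.7 and 82.3 ± 150.6 CPM (2.14, edgeR, adjusted p = 0.00718). The YAP targets Axl, a receptor tyrosine kinase detected in 44 C10 and 31 SVEC cells, and Myof, a membrane repair protein detected in 41 and 27, had adjusted p-values of 0.693 and 0.428. With library totals Ccdc80 did not pass (adjusted p = 0.0557), and Igfbp3, which binds insulin-like growth factors, passed as higher in SVEC (-3.07, edgeR, adjusted p = 0.015).

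Of 23 Hippo pathway components, 21 were tested, 3 were higher in C10 and none in SVEC, with a median of 0.70. Vgll3, a cofactor that competes for TEAD proteins, averaged 104.6 ± 140.6 CPM over C10 cells and 20.3 ± 47.8 CPM over SVEC cells (2.56, edgeR, adjusted p = 0.00371). The other two were the TEAD factors Tead3, detected in 19 C10 and 2 SVEC cells, and Tead4, detected in 12 and 2, both at low counts. Among the called genes of the 4 lists, Tead3, Tead4, Gadd45a, Smurf1 and Furin had a count in 25% or more of C10 cells only, and Bgn of SVEC cells only, so each entered the test through the line in which it is high. Yap1 was detected in 44 of 46 C10 cells and 20 of 48 SVEC cells, at means of 18.0 ± 30.6 and 25.8 ± 68.2 CPM, and its log2 fold change of -0.16 did not pass (edgeR, adjusted p = 0.914). Wwtr1, which encodes TAZ, was at 55.4 ± 65.8 and 58.3 ± 87.7 CPM (log2 fold change 0.11, edgeR, adjusted p = 0.935).

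Of 23 TGF-beta pathway components, 16 were tested, 2 were higher in C10 and none in SVEC, with a median of 0.46. Smurf1, a ubiquitin ligase that works with Smad7 to remove the receptors, was detected in 23 C10 and 5 SVEC cells (2.59, edgeR, adjusted p = 0.00707), and Furin, a protease that matures the TGF-beta precursor, in 12 C10 cells and no SVEC cell.

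Of 25 other TGF-beta targets, 19 were tested, 5 were higher in C10 and 3 were higher in SVEC, with a median of 0.31. The 5 were Pmepa1, which dampens receptor signalling (2.57, adjusted p = 0.00273), Skil, a SMAD corepressor (2.05, adjusted p = 0.0474), Acta2, smooth muscle actin (1.53, adjusted p = 0.0239), Lox, a collagen cross-linking enzyme (1.25, adjusted p = 0.0398), and the collagen gene Col1a1 (1.05, adjusted p = 0.00415), all from edgeR. Higher in SVEC were Bgn, a small matrix proteoglycan, which averaged 3.71 ± 13.9 CPM over C10 cells and 444.4 ± 484.3 CPM over SVEC cells (-6.55, edgeR, adjusted p = 8.75e-12), and the inhibitors of differentiation Id2 (-2.54, adjusted p = 0.00037) and Id3 (-0.85, adjusted p = 0.0133). With library totals the split of this list was 1 higher in C10, Pmepa1, and 6 higher in SVEC, when 9.79% and 7.18% of all genes passed in those directions, and its median was -0.30 when that of all genes was -0.002. The targets that passed thus did not share a direction between the lines. The list does not separate genes that TGF-beta raises from genes that it lowers, so no strength of signalling is read from this split.

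**Figure D4:**
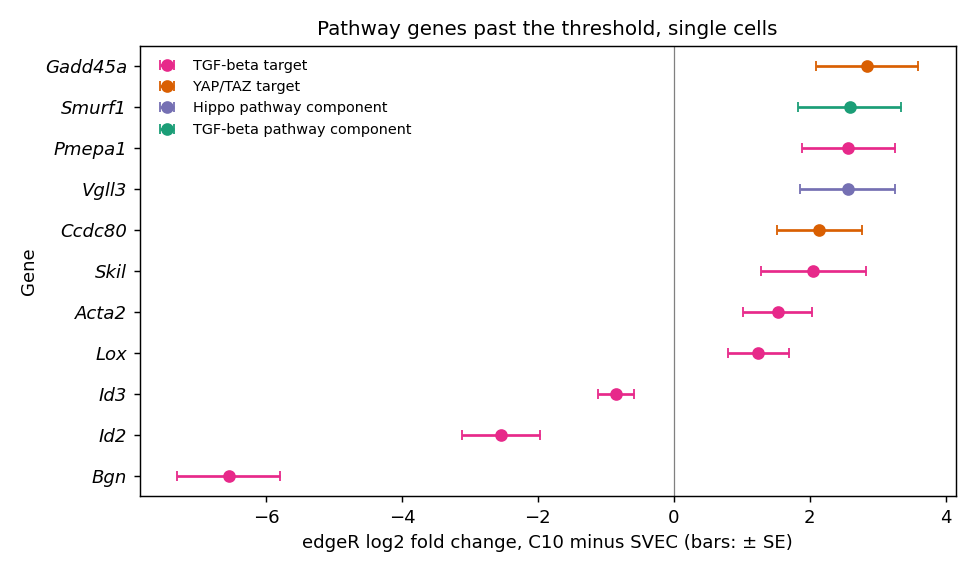
edgeR log2 fold change, C10 minus SVEC single cells (horizontal axis), of the 11 pathway genes that passed an adjusted p of 0.05 and were detected in at least 50% of the cells of the higher line, at most 4 per list and direction; bars are SEs and colours mark the list. The 8 genes on the right are higher in C10 and the 3 on the left, Id3, Id2 and Bgn, are TGF-beta targets that are higher in SVEC.

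The input series asked how the same genes appear when 1, 3 or 10 C10 cells go into a library. Ccn1 ran from 0 to 1685 CPM in 1-cell libraries with a median of 326.5, from 67.9 to 734.8 CPM in 3-cell libraries with a median of 415.5, and from 272.5 to 897.4 CPM in 10-cell libraries with a median of 462.3. The groups overlapped, and the lowest value rose with the number of cells while the highest did not. Means were 482.6 ± 601.5 (SD, n = 8), 397.3 ± 276.7 (SD, n = 6) and 510.5 ± 258.5 CPM (SD, n = 6). The coefficient of variation (CV), the SD over the mean, was 1.25, 0.70 and 0.51.

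Ccn2 was detected in 4 of 8, 5 of 6 and 6 of 6 libraries of 1, 3 and 10 cells, and its CV was 1.28, 1.10 and 0.39. Its 1-cell values were either 0, in 4 libraries, or between 207.0 and 527.3 CPM in the other 4, and its 10-cell values lay between 98.8 and 290.0 CPM. Thbs1 had CVs of 1.15, 0.47 and 0.43, with ranges of 0 to 1063, 84.9 to 397.2 and 255.4 to 650.8 CPM. Its 1-cell value of 0 was the shallow replicate 1, which also had no count of Ccn1, Ccn2 or Ankrd1. The next lowest 1-cell value of Thbs1 was 15.9 CPM. Ankrd1 had CVs of 2.15, 1.32 and 0.53. A 1-cell library, replicate 13, held 941.5 CPM of Ankrd1, while 6 of the other 7 were under 10 CPM. Over all genes with a count in 75% or more of a group's libraries, the median CV was 1.19, 0.79 and 0.70. In 10-cell libraries the 4 YAP targets, at 0.39 to 0.53, lay below that median. Their values there were within or under the interquartile range of 0.44 to 1.00. In 3-cell libraries Ccn2 and Ankrd1 lay above the median, and Ccn1 (0.70) and Thbs1 below it. In 1-cell libraries only Thbs1 lay below it. Genes of like level were not compared.

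Tgfb1 had a count in 5 of 8, 6 of 6 and 6 of 6 libraries. In 3-cell and 10-cell libraries it stayed between 0.356 and 5.61 CPM, whereas the 1-cell libraries ran from 0 to 56.4 CPM, with replicates 2 and 10 above 50 CPM. Smad7 was detected in 2 of 8, 5 of 6 and 6 of 6 libraries, with medians of 0, 8.78 and 14.1 CPM. A 1-cell library, replicate 9, had 87.6 CPM of Smad7, above every 3-cell and 10-cell library.

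The receptors were almost absent from the 1-cell libraries. Tgfbr1 had no count in any of the 8, a count in 1 of 6 3-cell libraries, at 14.0 CPM, and counts in 5 of 6 10-cell libraries, at 0.079, 2.85, 15.0, 16.0 and 61.8 CPM. Tgfbr2 had a count in 1 of 8 1-cell libraries, at 2.93 CPM, in 3 of 6 3-cell libraries, at 0.921, 11.4 and 51.5 CPM, and in 5 of 6 10-cell libraries, at 5.69 to 53.3 CPM.

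Between 10 cells and 1 cell, Tgfbr1 was the 1 gene that passed of the 8 tested (Tgfbi was not tested), when 10.2% of 13645 genes passed, 10.1% as higher in the 10-cell libraries. With a count in 0 of 8, 1 of 6 and 5 of 6 libraries, Tgfbr1 entered the test only through the 10-cell group, where it is high. Its fitted log2 fold change was 10.34 with an SE of 2.78 (edgeR, adjusted p = 0.0313). As the 1-cell libraries were all at 0, that value depends on the prior count. Against a floor of 3 counts per 1-cell library, which averaged 1.12 CPM, the 10-cell mean of Tgfbr1 was at least 14.2-fold higher. Without the top 10-cell library, replicate 1, that mean was at least 6.06-fold higher. The shallow 1-cell replicate 1 sets that floor: without it the floor is 0.286 CPM and the bound 55.8-fold. These bounds cover read counting only, and not which cells were drawn. A count in 0 of 8 libraries allows a share of up to 36.9% by the exact interval. In the C10 single cells Tgfbr1 was detected in 7 of 46, at a mean of 10.2 ± 36.8 CPM (SD). The 10-cell mean was 16.0 ± 23.6 CPM (SD). The bounds therefore give no minimum difference in level per cell. The call was lost when the shallow 1-cell replicate 1 was left out (adjusted p = 0.0605, with 0.682% of genes called), and held in the other 13 fits that left out 1 library. It was also lost with DESeq2 size factors (edgeR, adjusted p = 0.0592) and with no filter on low counts (edgeR, adjusted p = 0.0597). Tgfbr2 had a log2 fold change of 6.03 with an SE of 2.29 (edgeR, adjusted p = 0.102), limma gave 3.80 (adjusted p = 0.0264, when 10.3% of genes passed as higher in 10 cells), and without 1-cell replicate 5, the 1 library of that group with a count, its adjusted p was 0.0469. Smad7 passed only without 1-cell replicate 9 (log2 fold change 7.26, edgeR, adjusted p = 0.0422), which held 99.3% of its summed CPM in that group. The fits without replicates 5 and 9 bring their gene's 1-cell values to or near 0. No effect of cell number is therefore read from them.

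In edgeR none of the 8 tested genes passed between 3 cells and 1 cell, when 5.0% of genes passed, and Tgfbr1 had a value there of 7.61 with an SE of 2.47 (edgeR, adjusted p = 0.071), resting on 1 of the 3-cell libraries. DESeq2 called Tgfbr1 as higher in 3-cell libraries (adjusted p = 1.7e-12), from that 1 library, and Tgfb1 as higher in 1-cell libraries (adjusted p = 0.0261), when 7.46% and 2.01% of genes passed in those directions. Between 10 and 3 cells edgeR called no gene at all, 0.0% of 13645, while 1328 had an unadjusted p under 0.05, limma called 35 (0.257%) and DESeq2 230 (1.87%). None of these calls by any of the 3 tools was one of the 9 genes.

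**Figure D5:**
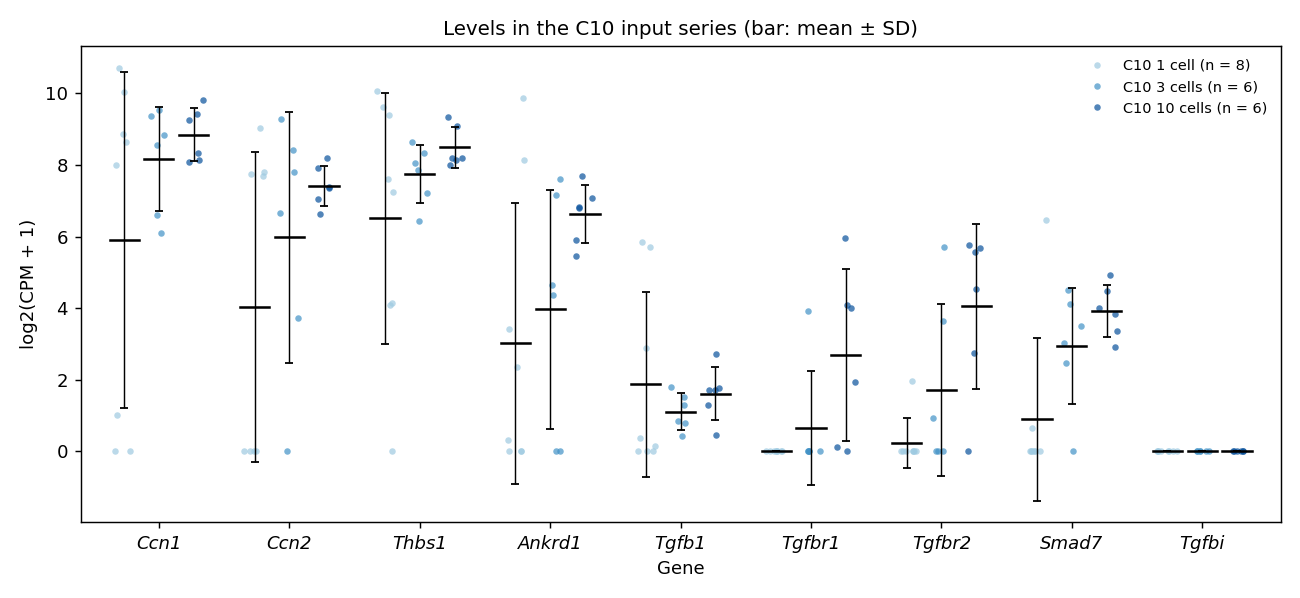
Level of each of the 9 genes in every library of the C10 input series, as log2(CPM + 1), for 1 cell (n = 8), 3 cells (n = 6) and 10 cells (n = 6); the horizontal bar is the mean and the vertical bar the SD. The spread of Ccn1, Ccn2, Thbs1 and Ankrd1 narrows toward 10 cells, Tgfbr1 is at 0 in all 1-cell libraries, and Tgfbi is at 0 throughout.

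C10 libraries of 1 cell exist in both sets, so the single-cell set was compared with the 1-cell libraries of the input series. Tgfbr2 was detected in 33 of 46 C10 single cells, at a mean of 79.5 ± 119.8 CPM, and in 1 of 8 1-cell libraries, at a mean of 0.366 ± 1.04 CPM, although the latter were sequenced more deeply. Of 7 genes tested it was the 1 that passed (log2 fold change 7.13, SE 2.07, edgeR, adjusted p = 0.0104), when 14.9% of 12303 genes passed, 3.58% as higher in the single-cell set. It entered the test only through the single-cell set, where it is high. The call held when each 1-cell library was left out in turn (edgeR, adjusted p from 0.000436 to 0.0214). As 7 of these 8 libraries had no count, leaving out 1 keeps that group near 0 and adds little. The call was lost with the replicate block and on shared replicate numbers with no block. Detection on thinned counts was 30 of 45 against 0 of 8 cells, which did not pass over all genes (Fisher's exact test, two-sided, adjusted p = 0.113, when 0.0251% of 7969 genes passed); 0 of 8 allows a share of up to 36.9% by the exact 95% interval. Tgfb1 and Smad7 had lower fitted values in the single-cell set, -2.76 with an SE of 1.13 (edgeR, adjusted p = 0.0924) and -3.07 with an SE of 1.22 (edgeR, adjusted p = 0.0807). Both passed with DESeq2 size factors, at -3.08 (edgeR, adjusted p = 0.0345) and -3.62 (edgeR, adjusted p = 0.0219), when 20.7% of genes passed as higher in the 1-cell libraries. Smad7 entered the test only through the 1-cell libraries. The means of Ccn1 in the 2 sets, 536.4 ± 404.6 and 482.6 ± 601.5 CPM, differed by less than their SDs. The labels list the sets as separate series, and the set and any batch cannot be told apart.

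Finally, the genes were compared with each other across the single cells of a line, on log2(CPM + 1). Spearman's rho over the 15 pairs among the 6 genes detected in at least 25% of C10 cells ran from -0.072 to 0.331 (n = 46 cells), and over 10 such pairs in SVEC cells from -0.110 to 0.375 (n = 48 cells). Ccn1 and Thbs1, the genes detected in nearly every C10 cell, had a rho of 0.009. Ccn2 and Ankrd1 had a rho of 0.32 in C10 and 0.14 in SVEC, and Ccn2 and Thbs1 0.17 and 0.35. These are descriptions with no test, over cells that share depth and many zeros. The genes whose pattern over C10 cells was most like that of Ccn1, among 3227 genes detected in at least 75% of them, were Aopep (rho 0.49), Mid1ip1 (0.45) and Lars2 (0.44), and those most like Thbs1 were Faf2 (0.51), Zfp207 (0.50) and Psmd2 (0.50). In SVEC cells the genes most like Ccn1 were Gphn (0.48), Rbm39 (0.47) and Aebp1 (0.45), among 1282 genes. These are the highest of 3227 or 1282 values and were not tested. The 95th percentile of rho was 0.24 for Ccn1 and 0.27 for Thbs1 in C10, and 0.27 for Ccn1 in SVEC. On thinned counts Aopep, Mid1ip1 and Lars2 had a rho with Ccn1 in C10 of 0.54, 0.42 and 0.28. Faf2, Zfp207 and Psmd2 had 0.37, 0.45 and 0.54 with Thbs1. In SVEC, Gphn, Rbm39 and Aebp1 had 0.40, 0.38 and 0.29 with Ccn1. Of the other YAP targets among the 9, only Thbs1 in C10 met the 75% limit. Ccn2 and Ankrd1 in both lines, and Thbs1 in SVEC, could therefore not appear among these genes. Thbs1 took place 1484 of 3227 for Ccn1 in C10.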

How the data were processed

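Full-length cDNA was prepared with SMART-Seq v4 Plus, per the labels' protocols, and sequenced as single reads of 150 bases, and the submitters' processing notes name FastQC, STAR and HTSeq. Genome build, annotation and strand setting were not given in the sources used here. Values are whole-number read counts per gene symbol as deposited by the authors, 1 file for each of 116 libraries, with 5 closing counters that were left out; unaligned reads had a median share of 30.7%. Reads from Ccn2 and the antisense gene Gm15270, and from Thbs1 and the antisense gene Gm29233, cannot be told apart without a stated strand, so both genes' counts are uncertain to that extent.

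Counts were scaled to CPM. Genes were tested on counts with edgeR 4.0.16 (quasi-likelihood, robust, TMM factors) in R 4.3.3 with Benjamini-Hochberg adjustment over all genes tested and a threshold of 0.05. C10 and SVEC single cells, and C10 single cells and 1-cell libraries, were each fitted as a pair of groups on genes with a count in at least 25% of a group. The input series was 1 model over genes with a count in at least 50% of a group. Libraries under 1000 counts were left out. Alternatives were limma 3.58.1 on log2(CPM + 1), DESeq2 1.42.0 and its size factors, no filter, library totals, libraries of at least 100000 counts, thinning to 100000 counts, a replicate block and leaving libraries out; the Fisher's exact tests of detection (scipy 1.17.1) and the leaving out of each input-series library were added after seeing the data. Scripts were tested on simulated data.

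The 9 genes, the pathway lists, the markers and the naming rules were chosen with earlier results of these data known. Named pathway genes were at most 4 per list and direction, with the largest fold change among those under the threshold with a count in 50% or more of the higher line's cells; the genes most alike were the 3 with the highest rho. Exon lengths came from GENCODE M21. The lowest chi-square per degree of freedom between libraries of a group was 3.226, so no library was treated as deposited more than once. The labels do not say that libraries came from separate cultures, so p-values measure the spread between these libraries, which may be technical.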

Additional observations from a re-analysis of the deposited data

Results flagged for a closer look

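Within a group of 6 or 8 libraries, a single library lay far above the rest in 7 of the 23 groups of values examined. In 1-cell libraries these were Ccn2 in replicate 14 at 527.3 CPM (next highest 220.4), Ankrd1 in replicate 13 at 941.5 CPM (next 278.6), Tgfbr2 in replicate 5 at 2.93 CPM (all others 0) and Smad7 in replicate 9 at 87.6 CPM (next 0.585). In 3-cell libraries they were Tgfbr1 in replicate 2 at 14.02 CPM (all others 0) and Tgfbr2 in replicate 6 at 51.5 CPM (next 11.44). In 10-cell libraries it was Tgfbr1 in replicate 1 at 61.83 CPM (next 16.04). For normally distributed values the limit used is passed by about 1 in 20 groups, or 1.15 groups here. The values hold many zeros, and a group with a single library above 0 always passes, so that rate does not apply. Chance was not tested.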

How the results depend on the processing

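Alternative values were counted first for the 6 genes tested between the lines and for Tgfbr1 and Tgfbr2 in the input series. Those of Tgfbr2, Tgfb1 and Smad7 between the C10 sets were counted with them. Of these 223 values, 195 kept their direction and their side of the threshold, 19 came to pass it and 7 ceased to pass it. The other 2 changed sign, neither of them called. They were Ankrd1 between C10 and SVEC, at 0.17 in limma and 1.46 with the replicate block. The other genes tested in the input series and between the C10 sets had 174 alternative values. Of these, 46 changed sign, none of them called, so the directions of those genes were less stable. Genes called between C10 and SVEC numbered 1736, against 3195 in limma, 5402 with no filter and 3190 with the replicate block. Between 10 cells and 1 cell they numbered 1386, against 178 with DESeq2 size factors, 28 with no filter, 0 with the replicate block (3036 at an unadjusted p under 0.05), 4 on shared replicate numbers with no block, and 93 to 2730 when 1 library was left out (93 without 1-cell replicate 1, 872 without replicate 5 and 2730 without replicate 10). Between 3 cells and 1 cell they numbered 682, against 65 with size factors, 121 in limma, 42 with no filter, 0 with the block (1608 unadjusted), 29 on shared numbers, 1165 in DESeq2 and 9 to 1944 when 1 library was left out (9 without 1-cell replicate 9, 1944 without replicate 10). Between 10 and 3 cells they numbered 0, against 35 in limma and 230 in DESeq2. Between C10 single cells and 1-cell libraries they numbered 1839, against 2997 with size factors, 1158 in limma, 4359 with no filter, 0 with the block (1621 unadjusted), 887 on shared numbers and 892 on thinned counts. The cause was not tested. Same-numbered libraries were little alike, with correlations whose medians lay between -0.03 and 0.02. Between C10 and SVEC single cells, 2 of 46 libraries were closest to their own number, and between C10 single cells and 1-cell libraries 1 of 8. In the input series it was 4 of 6 between 1 and 3 cells, 0 of 6 between 1 and 10, and 2 of 6 between 3 and 10. Whether the numbers pair the 1-cell and 3-cell libraries was thus not settled. With the block, Ccn2, Thbs1 and Tgfbr2 passed between the lines, when 31.3% of genes passed as higher in C10, and Tgfbr1 (10 cells against 1) and Tgfbr2 (C10 single cells against 1-cell libraries) did not pass. Those 2 calls were also lost on the shared-number libraries with no block (adjusted p = 0.0726 and 0.0824), where Tgfbr1 passed between the C10 sets (adjusted p = 0.019). With no filter, Thbs1, Tgfbr2 and Smad7 passed as higher in C10 (18.3% of genes) and Tgfbi as higher in SVEC (11.7%), the latter from a single cell. Of 70 shares and correlations recomputed on thinned counts, 5 moved, 3 of them shares of Tgfb1. The absence of Tgfb1, Tgfbr1, Smad7 or Tgfbi from a cell is not shown at these counts, and the part of depth in their zeros was not tested.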
